A study of Mus musculus with 2 samples.

Results

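The genes of oxidative phosphorylation were described across the cell clusters of 1 single-cell RNA-seq matrix of cultured mouse neural stem cells. They were taken by symbol: the mitochondrial genes mt-Nd, mt-Co, mt-Cytb and mt-Atp and the nuclear genes whose symbols start with Ndufa, Ndufb, Ndufc, Ndufs, Ndufv, Uqcr, Cox4 to Cox8 or Atp5. The isoform genes Ndufa4l2 and Cox4i2, the Ndufaf assembly factors and pseudogene symbols were left out. The rule found 92 of the 28692 genes of the matrix, 13 of them mitochondrial and 79 nuclear. Of these, 88 had at least 100 UMIs (unique molecular identifiers, each standing for 1 counted molecule) in the kept cells, namely all 13 mitochondrial genes and 75 nuclear ones.

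The cells were postnatal neural stem cells of the C57/Bl6J mouse strain, expanded in culture from the subventricular zone (SVZ), the neurogenic wall of the lateral ventricle. GEO lists 1 vehicle control library (DMSO) and 1 library treated with 1 µM 20HC, an oxysterol, both 3 days after EGF and FGF were withdrawn. The animals' exact age and sex and the number of cultures are not given in the sources used here. Both libraries are pooled in 1 matrix whose barcodes end in 1 or 2, and no label ties a number to a library. The matrix was therefore 1 sample, no control against 20HC comparison was made, and no p-values were computed. The groups of barcodes are called barcode set 1 (9630 kept cells) and barcode set 2 (3398 kept cells), and neither carries a condition.

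Oxidative phosphorylation is carried out in the inner mitochondrial membrane. Complex I takes electrons from NADH, complex III passes them to cytochrome c and complex IV to oxygen, while complex V, the ATP synthase, uses the resulting proton gradient to make ATP. The mitochondrial genome encodes the hydrophobic core subunits of these complexes and the nuclear genome all other subunits, so a working complex needs products of both. In the neural lineage, astrocytes and activated or dividing progenitors are known to differ in how far they rely on glycolysis and on respiration.

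The 13028 kept cells carried a median of 2842 UMIs and fell into 12 clusters, which were formed without the 92 genes, so that their own levels did not draw the clusters. Clusters 1 and 2 were astrocyte-like (4150 and 2757 cells, with 6 and 7 of 12 astrocyte markers raised at least 2-fold). Cluster 3 was progenitor-like (1559 cells, 4 of 10 markers), clusters 4 and 5 cycling-like (1395 and 1013 cells, 12 of 14 markers each) and cluster 6 like oligodendrocyte precursors (OPC-like, 690 cells, 8 of 9 markers). Clusters 9 to 12 were fibroblast-like (221 cells), neuroblast-like (198), ependymal-like (170) and microglia-like (35). Clusters 7 (510 cells, with Lgals1 among its leading genes) and 8 (330 cells, led by Car9, Cox4i2 and Ndufa4l2) stayed unnamed. In the neural stem cell culture the stem or progenitor list therefore named only cluster 3, and most kept cells carried astrocyte markers. The names of clusters 1 to 3 rest on the raised markers, while other listed markers were lower than in the remaining cells. In cluster 3 Vim had 1279 CPM (defined below) against 3310 and Sox2 176.8 against 238.1. Hes5 and Hes1 were lower on 8 and 2 UMIs, and Nes and Notch1 higher by less than 2-fold. In cluster 1 Cldn10 was lower (48.12 against 70.44) and Gfap not raised (3249 against 3257). In cluster 2 Agt (25.06 against 71.06) and S100b (8.864 against 23.3) were lower. Scrublet marked 2.42% of set 1 and 0.323% of set 2 as doublets, so it is not known to have worked in set 2. The sets shared 34 barcode sequences among kept cells.

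Together the 92 genes made up 8.68% of all UMIs of the kept cells. The 13 mitochondrial genes gave 1352680 UMIs (3.53%) and the 79 nuclear genes 1976067 (5.15%), or 0.685 mitochondrial UMIs per nuclear UMI. By complex, mitochondrial and nuclear genes gave 0.896% and 1.88% of UMIs for complex I (7 and 36 genes), 0.395% and 0.566% for complex III (1 and 8 genes), 1.39% and 1.46% for complex IV (3 and 18 genes) and 0.852% and 1.24% for complex V (2 and 17 genes). Complex V was set by symbol and so holds Atp5s and Atp5sl, which were not checked to be subunits of ATP synthase. GENCODE M21 gives Atp5sl the name Dmac2. Ndufa4, once counted with complex I, was placed in complex IV, where it is now assigned. The 4 genes under 100 UMIs were Cox8b with 34 UMIs, Cox6a2 with 6, Cox7b2 with 3 and Cox8c with 2, all tissue-restricted isoforms of complex IV.

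Mitochondrial transcripts took a larger share of UMIs in the astrocyte-like cells than in the other kept cells, and nuclear transcripts a slightly larger one. The mitochondrial share was 4.25% of UMIs in the 6907 astrocyte-like cells (4.31% in set 1 and 4.10% in set 2) and 2.65% in the other 6121 kept cells, a ratio of 1.61 (exact 95% interval 1.6 to 1.61). The nuclear share was 5.45% (5.49% and 5.32%) against 4.80%, a ratio of 1.14 (1.13 to 1.14). Mitochondrial UMIs per nuclear UMI were thus 0.781 against 0.552. These intervals cover counting error only, and spread between cultures or animals could not be measured. The nuclear ratio was 1.05 once mitochondrial and ribosomal protein UMIs were taken out of the denominator. Ribosomal protein genes gave 12.1% of UMIs in astrocyte-like cells against 15.5% in all kept cells, which include the astrocyte-like ones. In the other named classes they gave from 10.1% (ependymal-like) to 22.2% (fibroblast-like), with 18.9% in cycling-like and 21.7% in progenitor-like cells. The part of ribosomal protein genes in the nuclear ratio was otherwise not tested.

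The filter that removed barcodes above 10% mitochondrial UMIs acted on the mitochondrial genes themselves. It took out 772 barcodes with at least 500 genes, which held 14.9% mitochondrial and 4.61% nuclear UMIs (5.42% of their UMIs that were not mitochondrial, against 5.34% in kept cells). Their median depth was 1416 UMIs. With these barcodes put back in their nearest cluster the mitochondrial share ratio of astrocyte-like over other cells was 1.75, and with a stricter limit of 5% it was 1.44. Barcodes above the limit were 5.55% of set 1 and 8.03% of set 2.

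**Figure D1:**
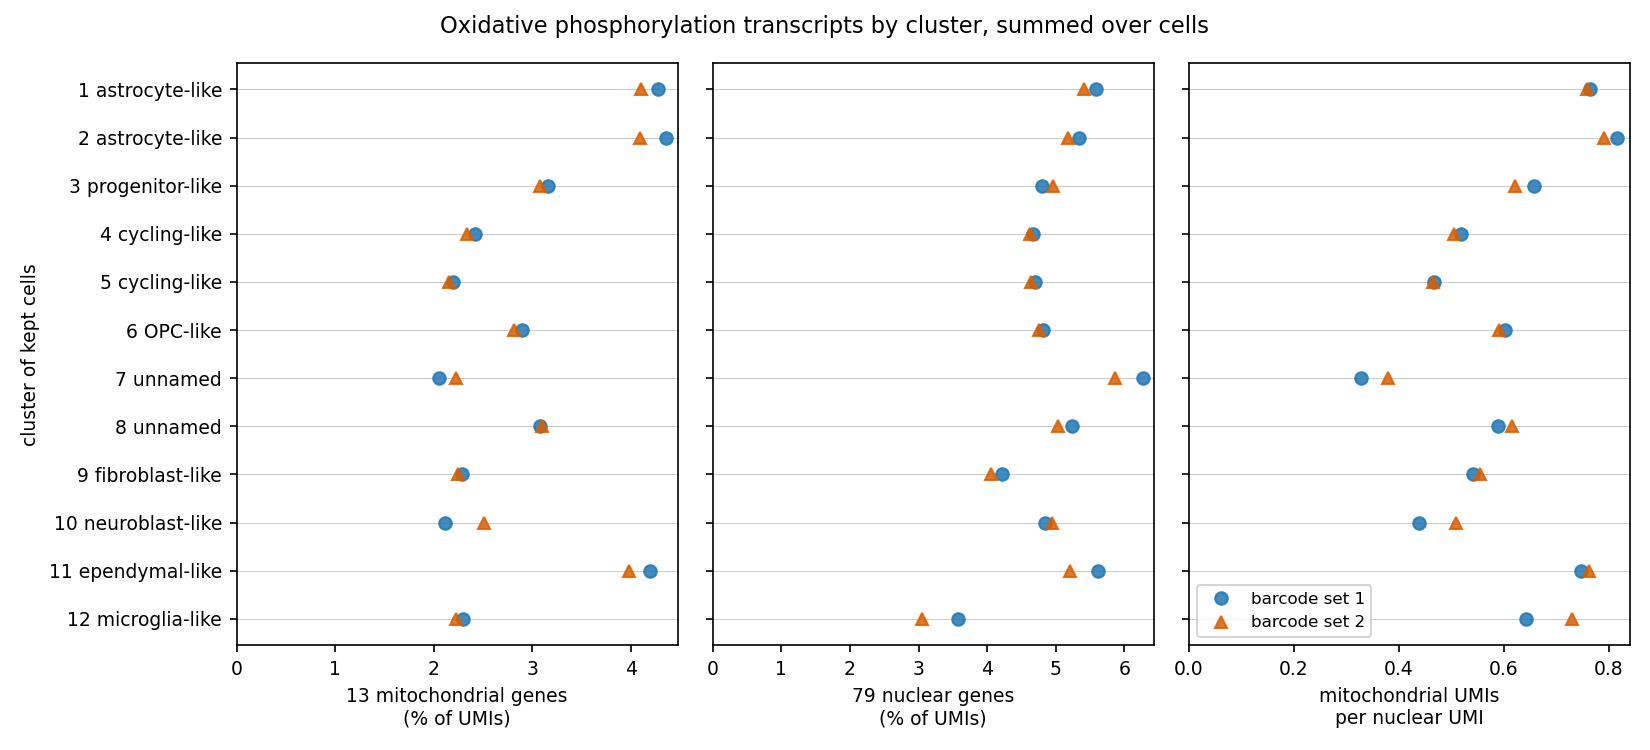
Percent of UMIs from the 13 mitochondrial genes (left), percent from the 79 nuclear genes (middle) and mitochondrial UMIs per nuclear UMI (right) for each of the 12 clusters, summed over cells, with circles for barcode set 1 and triangles for set 2. The astrocyte-like and ependymal-like clusters lie above 3.9% mitochondrial UMIs in both sets, the cycling-like clusters near 2.2 to 2.4%, and cluster 7 combines the highest nuclear with a low mitochondrial share.

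Across clusters the mitochondrial share was 4.23% in astrocyte-like cluster 1, 4.29% in astrocyte-like cluster 2 and 4.13% in the ependymal-like cluster 11. It was intermediate in progenitor-like cluster 3 (3.14%), unnamed cluster 8 (3.08%) and OPC-like cluster 6 (2.87%). The lowest values were 2.40% and 2.19% in cycling-like clusters 4 and 5, 2.28% in the fibroblast-like and in the microglia-like cells, 2.21% in the neuroblast-like cells and 2.07% in cluster 7. From microglia-like through fibroblast-like and neuroblast-like cells to cluster 5, the counting intervals of neighbours in this order overlapped. The nuclear share had another order: it was highest in cluster 7 (6.23%), followed by cluster 1 (5.55%), cluster 11 (5.51%) and cluster 2 (5.30%), and lowest in fibroblast-like (4.18%) and microglia-like cells (3.46%). Over the 12 clusters, which share depth and library, the Pearson correlation of both shares was 0.41, and 0.77 over the 11 clusters without cluster 7.

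Single cells spread widely around these sums. In astrocyte-like cells the median mitochondrial share per cell was 3.78%, with quartiles of 2.80% and 5.34%, and in cycling-like cells it was 1.82%, with quartiles of 1.37% and 2.69%. The quartile ranges of both classes therefore did not overlap over both sets together, nor in set 1. In set 2 they did overlap, with a lower quartile of 2.50% in astrocyte-like and an upper quartile of 2.70% in cycling-like cells. The median nuclear share was 5.33% (quartiles 4.69% and 6.01%) in astrocyte-like and 4.61% (4.25% and 4.996%) in cycling-like cells, and these ranges overlapped. With every cell thinned to 1000 UMIs, median mitochondrial shares were 3.7% and 3.9% in clusters 1 and 2 and 1.9% and 1.8% in clusters 4 and 5. Thinning left out 94, 49, 4 and 14 cells of these clusters as too shallow.

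All 13 mitochondrial genes lie on 1 circular molecule, and GENCODE M21 (GRCm38, the assembly also named mm10) places 12 on its plus strand and only mt-Nd6 on the minus strand. Neighbouring genes overlap in 4 places: mt-Atp8 and mt-Atp6 by 43 bases, mt-Nd4l and mt-Nd4 by 7, mt-Nd5 and mt-Nd6 by 14 on opposite strands, and mt-Atp6 and mt-Co3 by 1. mt-Atp8 and mt-Atp6, and likewise mt-Nd4l and mt-Nd4, are known to share 1 messenger RNA, and a 3′ tag of that RNA falls in the second gene. mt-Atp8 and mt-Nd4l had 1386 and 1053 UMIs in kept cells, and mt-Atp6 and mt-Nd4 had 325311 and 159410. The ends of these genes are shown because they mark where the genes run into each other; capitals are the bases shared with the next gene, and both run 5′ to 3′ on the plus strand (chrM:7910-7969 and chrM:10144-10173).
mt-Atp8 end: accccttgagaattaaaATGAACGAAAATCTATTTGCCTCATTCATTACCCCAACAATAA
mt-Nd4l end: gtccaaaatctcaacctactacaATGCTAA
The capitals open with the start codon of mt-Atp6 and of mt-Nd4.

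Levels are given as CPM, the UMIs of a gene in 1000000 UMIs of a class, which is a level of that gene across classes and not per length. By the rule used for calls, a gene was higher where its CPM exceeded that of the other kept cells by at least 25%, and lower where theirs exceeded its own by as much. The direction had to hold in both sets, and the other cells' CPM had to lie outside the exact Poisson 95% interval of the class. In astrocyte-like cells all 13 mitochondrial genes were higher and none was lower (11 were higher with a mitochondrial limit of 5% and 9 at a 1.5-fold rule), while 46.2% of all 11235 genes with 100 UMIs were called higher and 25.4% lower. Among the 2839 genes with at least 2000 UMIs, which are nearer the members in abundance, 35.8% were higher and 32.4% lower. The median log2 ratio (of CPM + 5) of the 13 genes was 0.63, against 0.18 over all genes with 100 UMIs. The catalytic core subunit of complex IV, mt-Co1, had 6873 CPM in astrocyte-like cells (7227 in set 1 and 5895 in set 2) against 3849 in the others, a 1.79-fold ratio. mt-Nd4, a membrane-arm subunit of complex I, had 5324 CPM (5281 and 5443) against 2741, 1.94-fold and the largest ratio of the 13. mt-Cytb, the only complex III subunit of the mitochondrial genome, had 4698 CPM (4650 and 4832) against 3038, and mt-Atp6, which forms the proton path of ATP synthase, 10180 (10330 and 9764) against 6430. The smallest ratios were 1.39 for mt-Atp8 and 1.41 for mt-Co3. The transcript from the other strand, mt-Nd6, went the same way, with 8.18 CPM (8.29 and 7.88) against 5.20. In these genes both sets of astrocyte-like cells stood above the pooled other cells. The same direction in both sets was part of the rule for calls, so it adds no support.

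In cycling-like cells all 13 mitochondrial genes were lower, where 50.4% of all genes were called lower and 23.0% higher (40.1% and 32.5% of genes with at least 2000 UMIs). mt-Co1 had 2943 CPM (3163 in set 1 and 2400 in set 2) against 6145, a ratio of 0.479, and mt-Nd4 had 2303 (2292 and 2331) against 4618, a ratio of 0.499. The others lay between 0.563 for mt-Nd5 and 0.734 for mt-Nd3. Astrocyte-like cells make up most of the cells on the other side of this comparison. Against the remaining cells alone, the mitochondrial share ratio of cycling-like cells was 0.794 in place of 0.604, and 4 of the 13 genes were lower in place of 13, where 39.6% of all genes were called lower and 17.9% higher. With a mitochondrial limit of 5%, 9 of the 13 were lower.

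The progenitor-like, OPC-like and fibroblast-like cells were also compared with all other kept cells. In progenitor-like cells 2 of 13 mitochondrial genes, mt-Co1 and mt-Nd4, were lower and none was higher (all genes 37.7% lower and 15.6% higher; with 2000 UMIs, 33.1% and 22.1%), and the mitochondrial share ratio was 0.878. Without the astrocyte-like cells on the other side that ratio turned to 1.249 and 6 of the 13 genes were higher (all genes 10.9% higher and 19.7% lower). It also turned above 1 under other clusterings, so no direction is given for progenitor-like cells. In OPC-like cells 4 of 13 were lower (all genes 24.9% lower and 13.4% higher; with 2000 UMIs, 24.6% and 17.6%), at a share ratio of 0.805 that likewise became 1.10, with 1 gene higher, without astrocyte-like comparison cells (all genes 16.4% higher and 14.9% lower). In fibroblast-like cells 10 of 13 were lower (all genes 25.9% lower and 13.5% higher; with 2000 UMIs, 43.9% and 16.0%) at a share ratio of 0.639, which became 0.852, with 1 gene lower, without them (all genes 22.9% lower and 17.9% higher).

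**Figure D2:**
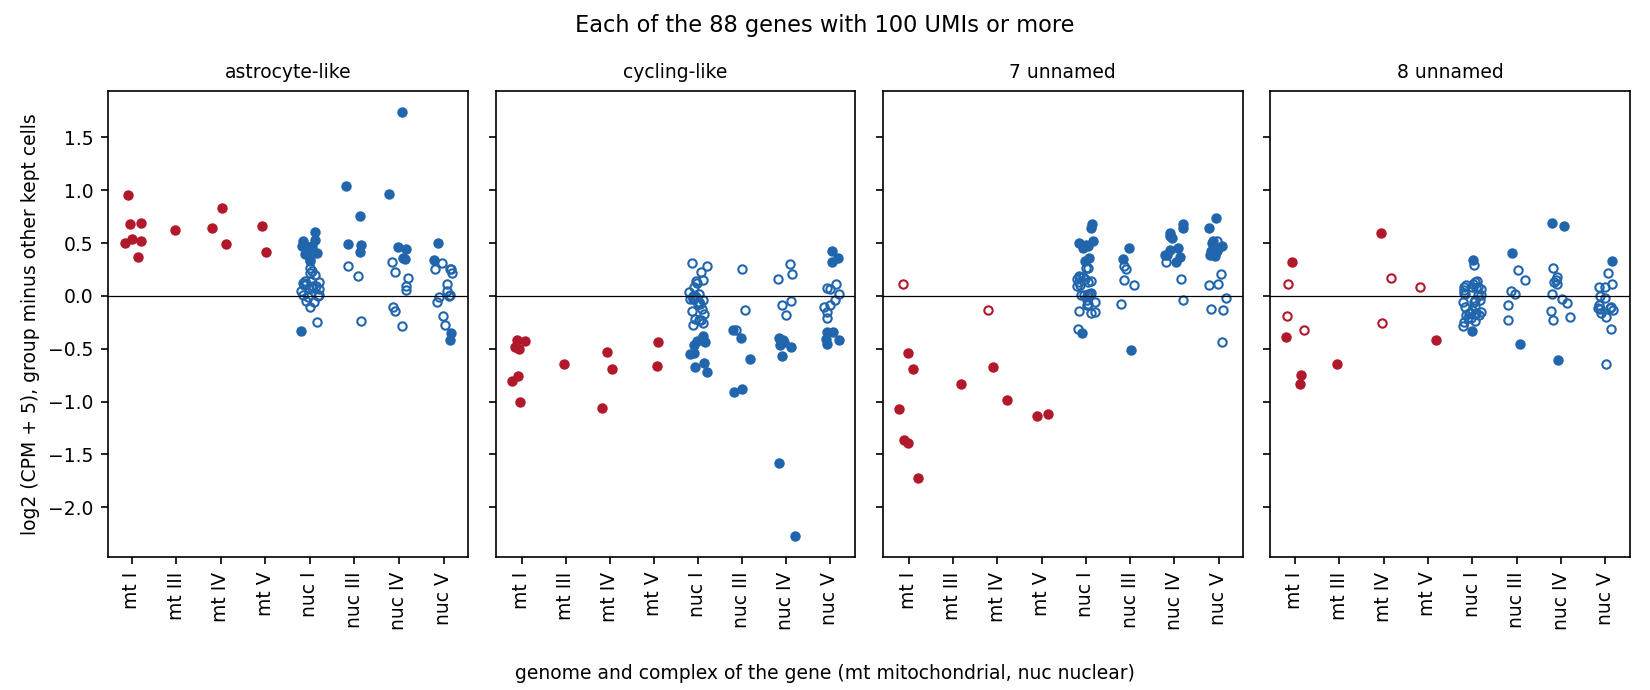
Log2 difference in CPM + 5 between a group and all other kept cells for each of the 88 genes with at least 100 UMIs, in columns by genome and complex, for astrocyte-like cells, cycling-like cells and unnamed clusters 7 and 8. Filled points passed the rule for calls and open points did not; the 13 mitochondrial genes (red) lie above 0 in astrocyte-like and below 0 in cycling-like cells, while nuclear genes (blue) lie on both sides.

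The nuclear genes were mixed. Of the 75 measured, 24 were higher and 3 lower in astrocyte-like cells. Among all genes 46.2% were higher and 25.4% lower, and among genes with at least 2000 UMIs 35.8% and 32.4%. The share of members higher was thus close to that of genes with at least 2000 UMIs, and the share lower was below both. With mitochondrial and ribosomal protein UMIs out of the denominator the split was 16 higher and 7 lower, and relative to the summed UMIs of the nuclear members it was 8 and 9. The median log2 ratio of the nuclear genes was 0.17, against 0.18 over all genes and 0.04 over genes with at least 2000 UMIs. By complex, the median was 0.12 for complex I, 0.45 for complex III, 0.27 for complex IV and 0.05 for complex V.

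For complex I, 11 of 36 nuclear genes were higher in astrocyte-like cells and 1 was lower. Among all genes 46.2% were higher and 25.4% lower (35.8% and 32.4% with 2000 UMIs). Ndufa1, a small membrane subunit, had 308.7 CPM (318.9 in set 1 and 280.5 in set 2) against 200.9 in other cells, 1.54-fold. Ndufa13, also known as Grim19, had 1142 (1160 and 1090) against 788.2, 1.45-fold, and Ndufs7, an iron-sulfur subunit near the quinone site, had 704.3 (698.7 and 719.9) against 505.5. In each of these the 2 sets of astrocyte-like cells were close to each other. That each set lay above its own other cells was part of the rule for calls. Ndufb4, an accessory subunit of the membrane arm, went the other way with 523 CPM (524.5 and 518.9) against 657.5, and it was highest in progenitor-like cells (775.2), though in each of these classes 6 other settings ended its call. Ndufa2 and Ndufc2, which with Ndufa13 had most UMIs of complex I, were at 1297 CPM against 1033 and at 947.1 against 902.7, the first called and the second not. Ndufc2 instead set off other classes, with 623.9 CPM in OPC-like and 409.6 in fibroblast-like cells against 927 over all kept cells.

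For complex III, 5 of 8 nuclear genes were higher in astrocyte-like cells and none was lower, where 46.2% of all genes were higher (35.8% with 2000 UMIs). With so few genes the count is not read as an excess. Uqcrfs1 (GRCm38 chr13:30540308-30545362), the Rieske iron-sulfur protein that hands electrons towards cytochrome c1, had 118.8 CPM (119.5 and 116.9) against 55.1, 2.16-fold. Uqcr11, a small accessory subunit, had 1424 (1477 and 1277) against 843.1, 1.69-fold, and Uqcrh, the hinge protein, 1517 (1532 and 1476) against 1087. Uqcr10 and Uqcrc1 were at 1.34-fold and 1.41-fold. In cycling-like cells the same 5 genes were lower, Uqcr11 with 690.2 CPM (711.3 and 638.2) against 1279 and Uqcrfs1 with 50.8 (52.7 and 46.0) against 99.8. Among all genes 50.4% were lower there (40.1% with 2000 UMIs), and astrocyte-like cells make up most of the comparison cells. The call of Uqcrfs1 in cycling-like cells was lost without astrocyte-like comparison cells, at a log2 ratio of -0.19. The not called Uqcrb had 380.9 CPM in astrocyte-like and 474.4 in cycling-like cells.

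For complex IV, 6 of 14 measured nuclear genes were higher in astrocyte-like cells and none was lower. The share higher is near the 46.2% of all genes (35.8% with 2000 UMIs). Cox4i1, a regulatory subunit, had 3075 CPM (3039 and 3174) against 2260. Cox7a1 (chr7:30184144-30186078), known as the heart and muscle isoform of its subunit, had 72.4 CPM (76.7 and 60.3) against 18.1, a ratio of 4.0 and the largest of the nuclear genes. Cox6b2 (chr7:4751792-4753094), known as the testis isoform, had 298.1 (300.8 and 290.5) against 150.3. Cox8a and Cox6c, which with Cox4i1 had most UMIs of complex IV, were at 2114 and 1697 CPM in astrocyte-like cells and at 1474 and 1224 in cycling-like cells. Cox7c was the reverse at 1371 and 1777 CPM, but its ratios of 0.823 and 1.24 did not pass the rule.

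For complex V, 2 of 17 nuclear genes were higher in astrocyte-like cells (Atp5k, and Atp5s, which was placed here by symbol only) and 2 were lower. Among all genes 46.2% were higher and 25.4% lower (35.8% and 32.4% with 2000 UMIs). The lower genes were Atp5b (chr10:128083273-128090391), the catalytic beta subunit, with 1144 CPM (1158 and 1103) against 1464, and Atp5g2, with 769.8 (757.5 and 804) against 1031. Atp5g2 is 1 of 3 genes that encode the same mature subunit c of the rotor ring. Its fellow genes passed the rule in neither class: Atp5g1 was at 818.9 CPM in astrocyte-like and 827.6 in cycling-like cells, and Atp5g3 at 360.8 and 306. In cycling-like cells Atp5g2 had 1115 CPM (1099 and 1155) against 831.1, Atp5b 1567 (1599 and 1488) against 1219, and Atp5f1, of the peripheral stalk, 1050 (1038 and 1078) against 839. These 3 were the nuclear genes called higher there, and under other settings the call was lost in 8 cases for Atp5f1, 3 for Atp5b and 2 for Atp5g2. Atp5j and Atp5o, the next in UMIs, were at 1217 and 1031 CPM in astrocyte-like and 1004 and 1073 in cycling-like cells.

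Of all 75 nuclear genes, 3 were higher and 27 lower in cycling-like cells, 1 and 14 in progenitor-like cells, 0 and 9 in OPC-like cells and 0 and 34 in fibroblast-like cells. The first 3 counts of lower genes are below the shares of all genes given above, though the first is close to the 40.1% of genes with at least 2000 UMIs. The last is above the 25.9% of all genes but close to the 43.9% of genes with at least 2000 UMIs. Without astrocyte-like comparison cells the counts were 0 and 12 in cycling-like, 1 and 1 in progenitor-like, 1 and 2 in OPC-like and 2 and 29 in fibroblast-like cells. In that comparison 39.6%, 19.7%, 14.9% and 22.9% of all genes were called lower in these classes, and only the fibroblast-like count exceeded its share. The share among genes with at least 2000 UMIs was not computed for that comparison, so the fibroblast-like count is not read as an excess of the members. The counts also hang on the denominator: relative to the summed UMIs of the nuclear members, 11 were higher and 13 lower in cycling-like and 7 lower in fibroblast-like cells, and without mitochondrial and ribosomal protein UMIs 6 were higher and 24 lower in cycling-like and 23 lower in fibroblast-like cells. In OPC-like cells the nuclear genes at the top were Ndufs6, Atp5g2 and Ndufv2, with 459.9, 1085 and 465.7 CPM, none called. Against all other kept cells, most of them astrocyte-like, the genes most lowered in fibroblast-like cells were Cox7a1 (ratio 0.252), Uqcrfs1 (0.427), Ndufc2 (0.435) and Ndufs1 (0.481). Ndufs1 is an iron-sulfur subunit of complex I. These genes had 12, 38, 399 and 39 UMIs there. The low Cox7a1 was not particular to fibroblast-like cells, at 12.32 CPM against 10.07 in progenitor-like, 9.305 in OPC-like, 12.45 in neuroblast-like and 72.36 in astrocyte-like cells. Uqcrfs1 had 39.0 CPM, near the 42.33 of neuroblast-like cells. Over the 11 clusters with at least 150 cells, Uqcrfs1, Ndufc2 and Ndufs1 were lowest in fibroblast-like cells.

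Short stretches before the RefSeq start sites (GRCm38.p6) are shown for 3 of these genes, because nuclear subunit genes that differ in direction can hold a match to the same kind of motif. Uqcr11 was higher in astrocyte-like cells, Cox6a1 was higher as well (1.38-fold), and Ndufb4 was lower. Capitals mark a match to the ETS or GABP motif CCGGAAGT in the first and to the NRF1 motif (GCGC, then N for any base, then TGCGC), read on either strand, in the other two. All are on the minus strand, 5′ to 3′, at chr10:80406860-80406907, chr5:115349091-115349140 and chr16:37654530-37654579.
Uqcr11: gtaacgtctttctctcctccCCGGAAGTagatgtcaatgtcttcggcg
Cox6a1: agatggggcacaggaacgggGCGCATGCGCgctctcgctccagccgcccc
Ndufb4: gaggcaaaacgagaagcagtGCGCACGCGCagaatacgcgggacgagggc
The matches end 58, 152 and 181 bases before the start. Of the 79 nuclear genes, 67 were found in the RefSeq promoter table, which gives 250 bases before and 50 after each start. NRF1 matches were in 22.4% of their promoters, against 5.19% of all genes in the table and 14.7% of the other genes with at least 2000 UMIs. Matches to the YY1 motif AAGATGGCG were in 11.9%, 1.64% and 5.46%, and CCGGAAGT matches in 7.46%, 4.31% and 11.3%, both motifs read on both strands. By direction, NRF1 matches were found in 5 of 20 genes higher in astrocyte-like cells, 2 of 3 lower and 8 of 42 not called, counting the 65 matched genes with at least 100 UMIs. A match is a string of letters and was not tested as a binding site.

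Summed by complex, mitochondrial UMIs per nuclear UMI in astrocyte-like cells were 0.551 for complex I, 0.733 for complex III, 1.06 for complex IV and 0.824 for complex V. In cycling-like cells they were 0.332, 0.625, 0.714 and 0.461, lower in each complex, with complex III nearest to the astrocyte-like value. By gene, the 13 mitochondrial genes were highest in astrocyte-like cluster 1 in 4 cases and cluster 2 in 5, in ependymal-like cells in 2 (mt-Nd4 and mt-Atp8) and in cluster 8 in 2 (mt-Co1 and mt-Nd5). They were lowest in cluster 7 in 8 cases, in neuroblast-like cells in 3 and in cycling-like cluster 5 in 2. The nuclear genes were highest in cluster 7 in 33 of 75 cases and in ependymal-like cells in 17, and lowest in fibroblast-like cells in 36. These orders cover the 11 clusters with at least 150 cells.

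Isoform genes gave the widest ranges among the nuclear genes. Over the 11 clusters with at least 150 cells, the highest CPM of a nuclear gene was a median 1.73 times its lowest, and 22 of 75 genes reached 2-fold. For mitochondrial genes the median was 2.69, and all 13 reached 2-fold. Cox7a1 ranged from 4.29 CPM in cycling-like cluster 5 to 96.1 in the ependymal-like cells, and it had 72.4 in the astrocyte-like class, 79.1 in cluster 7 and 77.4 in cluster 8. In the progenitor-like, OPC-like, fibroblast-like and neuroblast-like clusters it had 10.1, 9.30, 12.3 and 12.4 CPM. The clusters thus fell apart into a high and a low group for this gene, with microglia-like cells at 16.0 CPM in the low one. Its ubiquitous counterpart Cox7a2 stayed between 701.1 in fibroblast-like and 1187 in cluster 7. Cox6b2 was highest in ependymal-like cells (606.2 CPM) and lowest in neuroblast-like cells (44.8), while Cox6b1 ranged from 1097 to 1885. The steadiest nuclear gene was Ndufb3, from 254.4 to 296 CPM.

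**Figure D3:**
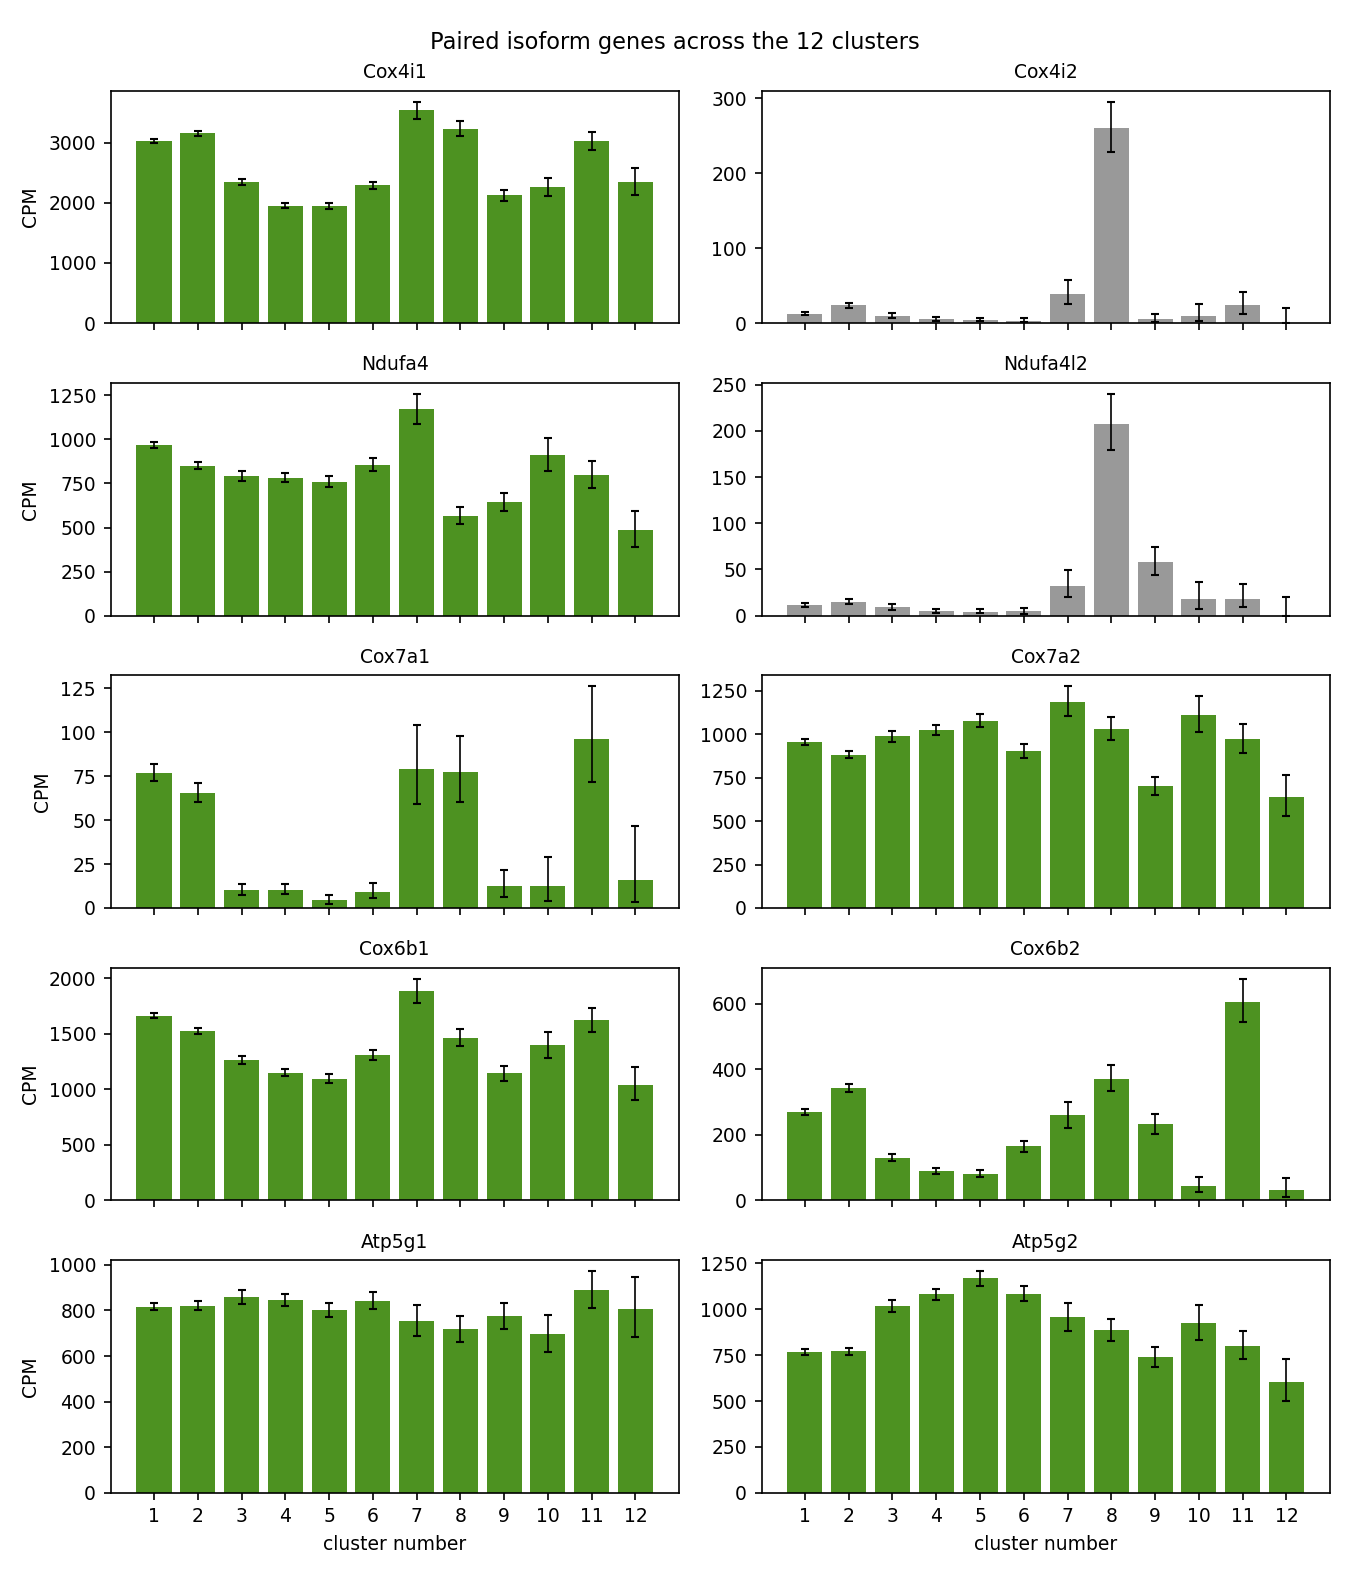
CPM of 10 isoform genes in each of the 12 clusters, with exact Poisson 95% intervals for counting error; clusters 1 and 2 are astrocyte-like, 3 progenitor-like, 4 and 5 cycling-like, 6 OPC-like, 7 and 8 unnamed, 9 fibroblast-like, 10 neuroblast-like, 11 ependymal-like and 12 microglia-like. Grey bars are Cox4i2 and Ndufa4l2, which are outside the 92 genes and helped to define cluster 8; Cox7a1 stands high in clusters 1, 2, 7, 8 and 11, and Ndufa4 is low in cluster 8.

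Cluster 8 differed from other cells in single subunits more than in its totals. Its nuclear share was 5.19% of UMIs, close to the 5.15% of all kept cells, and its mitochondrial share 3.08%. It was led by Car9, Egln3, Ndrg1 and Adm, known targets of the hypoxia response. Of 18 measured glycolysis genes 15 were higher and 1 lower there, where 9.10% of all genes were called higher and 11.7% lower (11.5% and 24.8% with 2000 UMIs). Glycolysis genes were not kept out of the clustering and could help to form cluster 8, so this count describes the cluster. Cox4i2 and Ndufa4l2, known as isoforms raised in low oxygen, had 259.9 CPM (277.3 in set 1 and 194.6 in set 2) and 207.9 CPM (235.3 and 105.2). As leading genes they describe the cluster and are no finding about it. Cox4i1 was at 3234 CPM, against 2707 over all kept cells. Ndufa4, the counterpart of Ndufa4l2, had 567.4 CPM (550.4 and 631.2) against 866.8 in the other cells, a ratio of 0.655 and the lowest level of the 11 larger clusters. Of the 75 nuclear genes 5 were higher there (Cox7a1, Cox6b2, Uqcrh, Ndufa6 and Atp5c1) and 3 lower (Ndufa4, Uqcrc1 and Ndufa11).

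The mitochondrial genes of cluster 8 differed in both directions. mt-Co1 was higher with 8214 CPM (8176 in set 1 and 8358 in set 2) against 5443, and mt-Nd5 was higher with 316.3 (319.3 and 305.1) against 252.5. mt-Nd4 was lower with 2351 CPM (2336 and 2409) against 4202, mt-Nd1 with 1862 (1871 and 1830) against 3121 and mt-Cytb with 2547 (2573 and 2451) against 3983, and mt-Nd2 and mt-Atp6 were lower as well. As a share of mitochondrial UMIs, which does not depend on the total, mt-Co1 made up 26.7% in cluster 8 (26.6% in set 1 and 27.0% in set 2) against 15.6% over all kept cells. mt-Nd4 made up 7.63% against 11.8% and mt-Nd1 6.04% against 8.76%. Under the 12 other settings that gave a cluster led by Car9 (it was not found with 15 principal components or with set 2 clustered alone), mt-Co1 took 26.2% to 27.1% of its mitochondrial UMIs and Ndufa4 had 538.5 to 631.2 CPM.

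**Figure D4:**
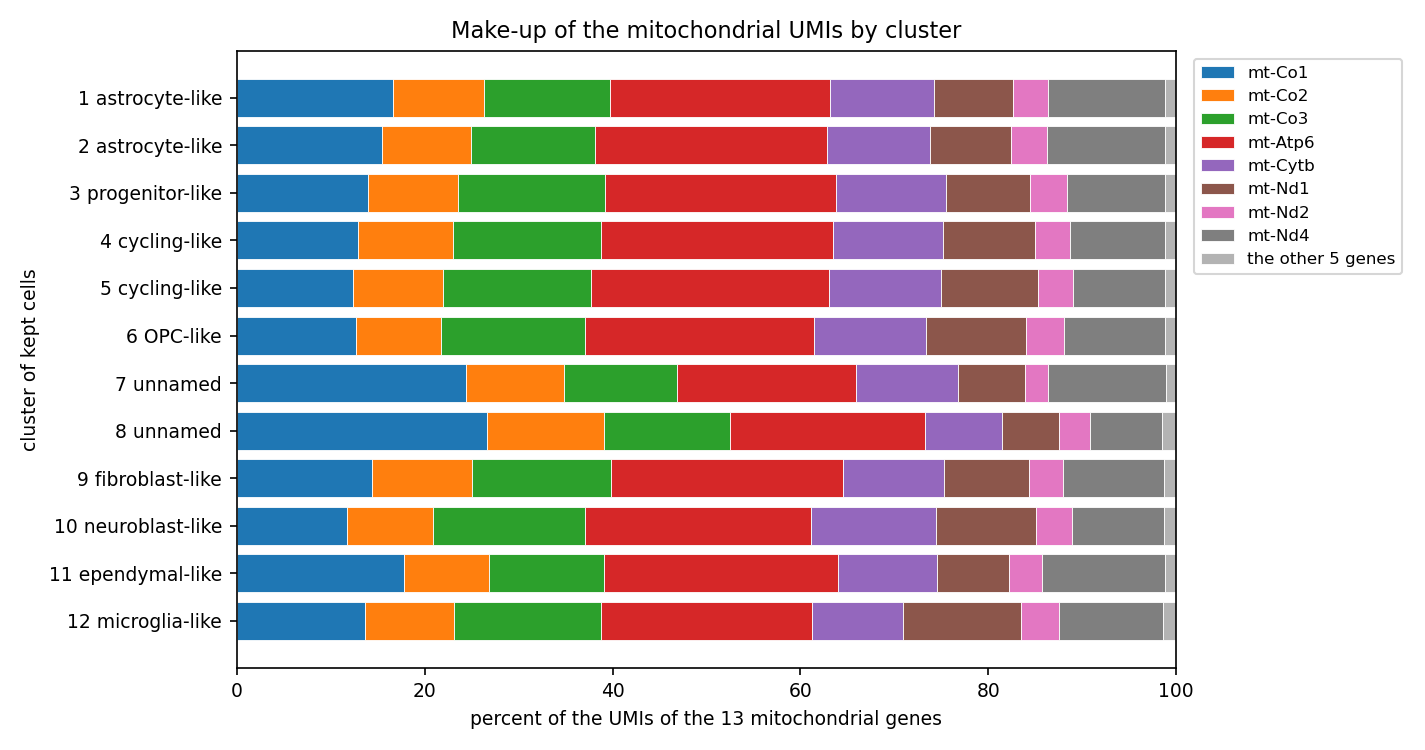
Percent of the UMIs of the 13 mitochondrial genes that came from each of 8 genes, and from the other 5 together, in each of the 12 clusters. The mt-Co1 segment is widest in cluster 8 (26.7%) and cluster 7 (24.4%) and lies between 11.8% and 17.8% in the other clusters.

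Cluster 7 had the largest nuclear share of the 12 clusters and a mitochondrial share among the lowest. It held 6.23% nuclear UMIs (6.27% in set 1 and 5.86% in set 2) and 2.07% mitochondrial UMIs (2.05% and 2.22%), or 0.332 mitochondrial UMIs per nuclear UMI against 0.692 in the other cells. Its mitochondrial share was the smallest of the clusters in set 1, but in set 2 cluster 5 had less (2.16%). Of the 75 nuclear genes 31 were higher and 2 lower, where 4.74% of all genes were called higher and 37.9% lower, and 14.7% of genes with at least 2000 UMIs were called higher and 43.2% lower. Atp5b had 2124 CPM (2102 and 2344) against 1274, Cox8a 2823 and Cox4i1 3534 (3488 and 3999) against 2693. Complex IV had 11 of 14 nuclear genes higher and complex V 9 of 17. Of the 13 mitochondrial genes 11 were lower and none higher; mt-Atp6 had 3937 CPM (3880 and 4517) against 8563, while mt-Co1, at 5035 (5096 and 4413) against 5516, was not called. These cells were shallow, with a median of 1094 UMIs, no marker list named them, and 23.4% of their UMIs came from ribosomal protein genes, of which 75 of 83 measured were higher. The part of depth and RNA quality in these values was not tested. Among its cells with at least 1000 genes, 0.405 mitochondrial UMIs were counted per nuclear UMI and mt-Co1 made up 18.9% of mitochondrial UMIs in place of 24.4%.

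Genes that work beside the complexes are given as counts, to be read against the 46.2% of all genes called higher and 25.4% lower in astrocyte-like cells and the 23.0% and 50.4% in cycling-like cells. Of complex II, which has no mitochondrial gene and feeds electrons from the citric acid cycle, 2 of 4 genes were higher in astrocyte-like cells and 2 lower in cycling-like cells. Sdha had 253.4 and 248.3 CPM in clusters 1 and 2 and 165 and 163.9 in clusters 4 and 5. Of 13 citric acid cycle genes 7 were higher and none lower in astrocyte-like cells, so that the shares of higher genes in both lists were near that of all genes. Cycs, cytochrome c, was lower in astrocyte-like and higher in cycling-like cells, with 373 and 328 CPM in clusters 1 and 2 and 575.3 and 557.7 in clusters 4 and 5. Mitochondrial ribosomal proteins, which build the machinery that translates the 13 mitochondrial transcripts, were lower in 24 and higher in 5 of 76 in astrocyte-like cells, where the share lower was near the 32.4% of genes with at least 2000 UMIs, and 29 were higher and 9 lower in cycling-like cells. Of assembly factors, 8 were higher and 4 lower of 32 in astrocyte-like cells. Of regulators and factors of mitochondrial gene expression, 5 were higher and 5 lower of 16: Ppargc1a, a coactivator of mitochondrial biogenesis, had 37.7 and 32.3 CPM in clusters 1 and 2 against 7.40 and 8.59 in clusters 4 and 5, and Tfam, which packages and transcribes mitochondrial DNA, had 39.45 and 45.03 against 63.1 and 48.2. Import and uncoupling genes were 1 higher and 4 lower of 11.

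Between the barcode sets most members differed by less than 25%. The median ratio of set 2 over set 1 was 0.98 for the nuclear and 0.87 for the mitochondrial genes, against 1.03 over all genes compared. The mitochondrial share was 3.56% in set 1 and 3.43% in set 2, and the nuclear share 5.19% and 5.06%. By a difference of at least 25% with intervals that did not overlap, 4 of 75 nuclear genes and 3 of 13 mitochondrial genes were lower in set 2 and none was higher, where 3.79% of 9859 genes with at least 200 UMIs were called lower and 2.19% higher. Ndufab1, the acyl carrier protein of complex I, had 306.3 CPM in set 1 and 150.9 in set 2. Cox5a, a complex IV subunit, had 197.7 and 97.7, and Atp5k, subunit e of ATP synthase, 387.3 and 236.3. mt-Nd4l had 32.1 and 14.6 CPM and mt-Atp8 40.3 and 24.6. Ndufab1, Cox5a, Atp5k and mt-Nd4l were lower in set 2 in all 10 clusters large enough to be compared in each set. Cox7a1 (51.5 and 37.8) and mt-Nd3 (103.2 and 81.4) were lower in 9 of 10. The labels do not say which set is which library, so these differences carry no condition, and whether they come from treatment, library preparation or sequencing cannot be told apart.

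**Figure D5:**
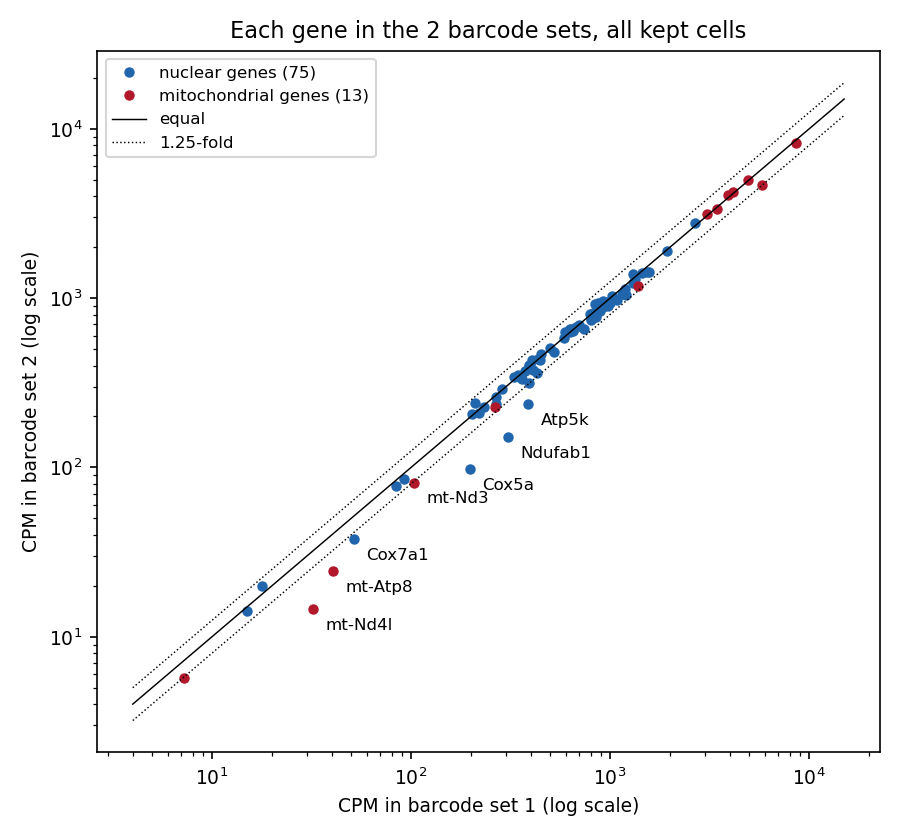
CPM of each of the 88 genes with at least 100 UMIs in barcode set 1 (horizontal, log scale) and barcode set 2 (vertical, log scale) over all kept cells, with a solid line for equal values and dotted lines for the difference used for calls. Most genes lie along the solid line, and the named genes Ndufab1, Cox5a, Atp5k, Cox7a1, mt-Nd4l, mt-Atp8 and mt-Nd3 lie below it.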

How the data were processed

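The deposited values are whole UMI counts per gene and barcode in 1 matrix of 28692 genes, 14685 barcodes and 41462326 UMIs. The authors made these counts with Cell Ranger 2.1.1 on mm10, per the submitters' processing notes, from 10x Chromium Single Cell 3′ v1 libraries, per the labels' protocols. The treatment text of the control library also names 20HC, so its group rests on its title.

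Barcodes with fewer than 500 genes (635) or above 10% mitochondrial UMIs (912) were left out, as were Scrublet doublets (250, called within each barcode set), leaving 13028 cells (9630 and 3398) with medians of 2822 and 2888.5 UMIs. The 2000 most variable genes other than the members gave 30 principal components, a 15-neighbour graph and, at resolution 0.5, the Leiden clusters. A cluster was named from 14 marker lists where at least 3 markers with 10 or more UMIs were at least 2-fold raised and its 10 leading genes did not favour another list. Counts were summed by cluster. Genes with at least 100 UMIs entered the calls (11235), and log2 ratios were taken on CPM + 5. Intervals are exact (Poisson or Clopper-Pearson, 95%) and cover counting error only. The call rule was tried on simulated Poisson counts with planted changes. They held no spread between cells, cultures or sets, so they do not measure false calls in these data.

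By rule, genes were named if they were mitochondrial, among the 3 nuclear genes with most UMIs of a complex, members of isoform families, or among the 3 highest or lowest ratios in the 4 biggest classes or the 5 highest or lowest between sets; other genes were picked after their values were seen. The members, lists and naming conditions were chosen with earlier results of these data known. Gene positions came from GENCODE M21 and promoters from RefSeq GRCm38.p6. Alternatives covered filters, clustering, denominators, thinning, the fold of a call, the comparison cells and each barcode set. Python 3.11.15, numpy 2.4.6, scipy 1.17.1, pandas 2.3.3, scanpy 1.11.5, scikit-learn 1.9.0, leidenalg 0.10.2, python-igraph 0.11.9 and matplotlib 3.10.9 were used.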

Additional observations from a re-analysis of the deposited data

How the results depend on the processing

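The astrocyte-like excess in the mitochondrial share, the nuclear share and the ratio of both kept its direction under every setting run (main values 1.61, 1.14 and 1.41; ranges 1.42 to 1.75, 1.05 to 1.17 and 1.23 to 1.56). In that order the values were 1.75, 1.13 and 1.56 with no mitochondrial limit, 1.44, 1.17 and 1.23 with a limit of 5%, 1.58, 1.15 and 1.38 with a minimum of 1000 genes, 1.62, 1.14 and 1.42 at resolution 0.3, 1.42, 1.14 and 1.24 at resolution 1.0, and 1.48, 1.12 and 1.32 with 15 principal components. They were 1.64, 1.12 and 1.47 after thinning to 1000 UMIs, 1.65, 1.11 and 1.49 as means of shares per cell, 1.62, 1.14 and 1.42 in barcode set 1 alone and 1.57, 1.12 and 1.40 in set 2 alone. The mitochondrial share and the ratio were 1.55 and 1.37 with doublets kept and 1.56 and 1.37 with the members allowed in clustering. The nuclear share was 1.15 without mitochondrial UMIs in the denominator, 1.05 without mitochondrial and ribosomal protein UMIs, and 1.14 with set 1 clustered alone.

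The count of nuclear genes higher in astrocyte-like cells, 24, was 6 at a 1.5-fold rule and 8 relative to summed nuclear members. The count lower, 3, was 1 at resolution 1.0 and with 15 principal components, 7 without mitochondrial and ribosomal protein UMIs, in set 2 alone and with set 2 clustered alone, 0 at a 1.5-fold rule and 9 relative to summed nuclear members. Over all settings, 9 to 13 mitochondrial genes were higher in astrocyte-like and 4 to 13 lower in cycling-like cells; nuclear genes were 0 to 11 higher and 9 to 28 lower in cycling-like, 1 to 16 lower in progenitor-like, 2 to 10 lower in OPC-like and 7 to 38 lower in fibroblast-like cells. Among the genes called lower, Atp5b lost its call under 3 settings, Ndufb4 under 6 and Atp5g2 under 1. The cause of these differences was not tested. The progenitor-like mitochondrial share and ratio, below 1 as reported, were 1.12 and 1.19 with members allowed in clustering, 1.11 and 1.17 at resolution 1.0, 1.17 and 1.23 with 15 principal components, 1.08 and 1.17 with set 1 clustered alone, and 1.249 and 1.23 without astrocyte-like comparison cells. The progenitor-like nuclear share was 1.013 without those cells and 1.014 without mitochondrial and ribosomal protein UMIs. The log2 ratio of Cox6b2 in progenitor-like cells was 0.015 with members allowed in clustering and 0.077 with 15 principal components. Without astrocyte-like comparison cells the OPC-like mitochondrial share, nuclear share and ratio were 1.10, 1.0 and 1.10, and the log2 ratio of Uqcrfs1 was 0.13. Some settings were added after the data were seen: shared barcodes left out, each set clustered alone, and the denominator of nuclear members.

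No paired analysis was possible because both libraries are pooled in 1 matrix with no map from barcodes to libraries. Spread between cultures could not be measured, genes under 100 UMIs were not compared, and cluster 12 held 35 cells.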
